A study of Mus musculus with 18 samples.

Results

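Vitrified mouse hippocampus was compared with snap-frozen mouse hippocampus across all genes of the deposited hippocampus table. The comparison takes the 3 vitrified and the 3 snap-frozen hippocampus libraries, 6 of the 18 libraries of the series, and rests on 18389 listed genes, of which 14528 passed the filter on low counts and were tested. The series also holds 3 fresh hippocampus libraries, whose levels are given as values beside the comparison, and cerebral cortex in the same 3 states. Poly(A) RNA was captured from TRIzol homogenates and sequenced from strand-specific libraries on a DNBSEQ instrument, per the labels' protocols. Snap-frozen tissue was immersed directly in liquid nitrogen. Vitrified tissue was first loaded with cryoprotectants from a stock of 28 wt% ethylene glycol, 22.3 wt% dimethyl sulfoxide, 17.1 g sucrose and 32.6 wt% buffered saline, at 25%, 50%, 75% and 100% for 5 min each. It then spent 5 min in liquid nitrogen and 4 days at -80 °C, was thawed in a 37 °C water bath, and was taken down through 75%, 50% and 25% of a rewarming solution with more sucrose and then saline, again for 5 min each. The stated incubations add up to 40 min, and the labels give none for snap-frozen or fresh tissue, so freezing and incubation cannot be told apart in this comparison. The labels name no strain, age, sex or animal, and do not say how long snap-frozen tissue was stored. P-values therefore reflect spread among these libraries alone, and that spread may be technical.

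Vitrification takes tissue to a glassy solid in which water does not crystallise, and depends on high concentrations of permeating cryoprotectants, whereas direct immersion in liquid nitrogen leaves ice in the tissue. The hippocampus is built from the glutamatergic pyramidal cells of the CA fields and the granule cells of the dentate gyrus, with GABAergic interneurons, astrocytes, oligodendrocytes, microglia and vessels around them. Astrocytes clear potassium and glutamate through channels and transporters of their processes, and express the water channel Aqp4 at their vascular endfeet.

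Total estimated counts were 16632142 to 16696505 in snap-frozen, 15808819 to 15987074 in vitrified and 16908624 to 17022164 in fresh hippocampus. Libraries of a group were nearly interchangeable, with a common coefficient of variation beyond counting of 1.69%. Counts of same-group pairs differed by a chi-square of 1.26 to 1.60 per degree of freedom and of at least 21.3 for pairs from different groups, so differences of a few percent can pass the test. The first principal component of the 9 libraries took 67.4% of the variance and placed the snap-frozen libraries at 53.0 to 53.5, the fresh at -20.4 to -19.6 and the vitrified at -33.8 to -32.8. The 3 snap-frozen libraries thus stood apart together, and every value below rests on them: no comparison can be made without that group. Levels are given as CPM, counts per 1000000 relative to the effective library size after TMM scaling, and log2 fold changes are vitrified minus snap-frozen with their standard error (SE) from edgeR's quasi-likelihood fit. Values after log2 in brackets are these fold changes ± SE, and adjusted p-values are Benjamini-Hochberg values over all genes tested.

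Most of the measured transcriptome differed between the frozen states. At an adjusted p below 0.05, 4916 genes were higher in vitrified tissue (33.8% of those tested) and 4933 were lower (34% of those tested), around a median log2 fold change of -0.00444. When the difference itself had to exceed 1.5-fold, 752 rose (5.18%) and 1616 fell (11.1%). The 3 vitrified and 3 snap-frozen values did not overlap for 69.9% of the genes tested. Counts of list members below are read against these shares, and "by more than 1.5-fold" always refers to the test against that threshold. The filter on low counts works by group and keeps a gene that is high only in snap-frozen tissue. Such a list member could hardly be called as a rise, so its fall adds little to a count. Otx2, Six3 and Glra1, of the choroid plexus, striatal and GABA and glycine receptor lists, are among them.

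The largest falls were mostly of transcription factors that were close to 0 in vitrified and fresh tissue. Shox2, a homeobox factor, had 39.8, 41.1 and 40.5 CPM in snap-frozen, 0.0627, 0 and 0 in vitrified and 0.0613, 0.0614 and 0 in fresh libraries. Tfap2d, of the AP-2 family, had 39.8, 37.1 and 37.2 CPM in snap-frozen, 0, 0.0634 and 0 in vitrified and 0.0613, 0 and 0 in fresh libraries. Barhl1, another homeobox factor, had 17.2, 15.98 and 15.6 CPM in snap-frozen libraries and no count in any of the other 6. In all of these genes every snap-frozen library was high and no vitrified or fresh library reached 0.1 CPM. Against 3 counts over the vitrified group, Barhl1 was at least 258-fold higher in snap-frozen tissue. The same bound was 239.6-fold for Pou4f2, 183-fold for Pax7, 162-fold for En1 and 132-fold for Cnpy1. It was 120.1-fold for Gata3 and 109-fold for Sox14. Of these, Pou4f2, Pax7, En1, Gata3 and Sox14 encode transcription factors of the developing nervous system. For Shox2, with 1 count over the vitrified libraries, the ratio was 1924 (exact 95% interval 345 to 76029.7), for Tfap2d, also with 1 count, it was 1807 (324 to 71418), and for the Wnt antagonist Sfrp5, with 2 counts, it was 472 (130.4 to 3904). These bounds and intervals cover counting error only.

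In total, 25 genes had at most 3 counts over the vitrified libraries and a mean of at least 1 CPM in snap-frozen tissue, 12 of them with no vitrified count at all. No gene showed the reverse. Among the 25, 10 also had at most 3 counts over the fresh libraries, and 21 were below 1 CPM in, or not listed for, snap-frozen cortex. Besides those named above they include Tfap2b, Pou4f1, Six3, Mab21l2, Irx5, Foxb1, Uncx and Pax3, developmental regulators, and Glra1 and Chrna6, subunits of glycine and nicotinic acetylcholine receptors. Thalamic markers, described next, were also highest in the snap-frozen libraries, while their summed level in vitrified libraries was near that in fresh ones. How the tissue was frozen and how much tissue of neighbouring regions was taken with it therefore cannot be told apart, and this limit holds for every vitrified minus snap-frozen value given here.

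Start regions of 3 genes are shown because they belong to the most different transcripts on either side: Shox2, with the highest snap-frozen level of the 25, Tcf7l2, the lead gene of the thalamic list below, and Krt2, among the largest rises. Each run covers 250 bases before to 50 bases after the RefSeq start in GRCm38.p6, on the strand of the gene, with every CG dinucleotide in capitals. Shox2 is at chr3:66981722-66982021 (minus strand), Tcf7l2 at chr19:55741560-55741859 (plus strand) and Krt2 at chr15:101818120-101818419 (minus strand).
Shox2: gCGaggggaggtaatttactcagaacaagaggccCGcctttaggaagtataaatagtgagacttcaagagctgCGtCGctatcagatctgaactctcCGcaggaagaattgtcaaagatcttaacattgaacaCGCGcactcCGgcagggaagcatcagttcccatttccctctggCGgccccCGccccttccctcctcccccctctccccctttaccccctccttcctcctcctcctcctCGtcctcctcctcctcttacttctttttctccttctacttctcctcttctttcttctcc
Tcf7l2: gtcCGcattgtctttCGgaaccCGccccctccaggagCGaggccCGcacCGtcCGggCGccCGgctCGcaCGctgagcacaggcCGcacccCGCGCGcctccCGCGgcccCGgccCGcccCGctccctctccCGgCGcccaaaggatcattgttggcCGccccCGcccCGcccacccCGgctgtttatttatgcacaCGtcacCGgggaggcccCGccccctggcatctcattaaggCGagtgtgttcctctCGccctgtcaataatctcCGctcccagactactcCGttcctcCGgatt
Krt2: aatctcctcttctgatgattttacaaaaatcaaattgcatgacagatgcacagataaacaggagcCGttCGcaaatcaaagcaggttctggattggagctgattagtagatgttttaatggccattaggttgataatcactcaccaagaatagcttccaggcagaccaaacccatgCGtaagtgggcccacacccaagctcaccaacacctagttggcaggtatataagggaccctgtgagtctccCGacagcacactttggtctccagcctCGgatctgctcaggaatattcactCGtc
The Tcf7l2 window holds 34 CG dinucleotides, that of Shox2 11 and that of Krt2 6. The median was 20 over the 11423 tested genes with a promoter entry, 16 over the 1249 such genes that fell by more than 1.5-fold and 19 over the 567 that rose by as much. The letters TATAAA, searched on both strands, occur in the Shox2 window and not in the other two, and in 7.03% of the windows of tested genes, 8.41% of those that fell and 9.35% of those that rose. These counts describe letters in a window and say nothing of binding.

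**Figure D1:**
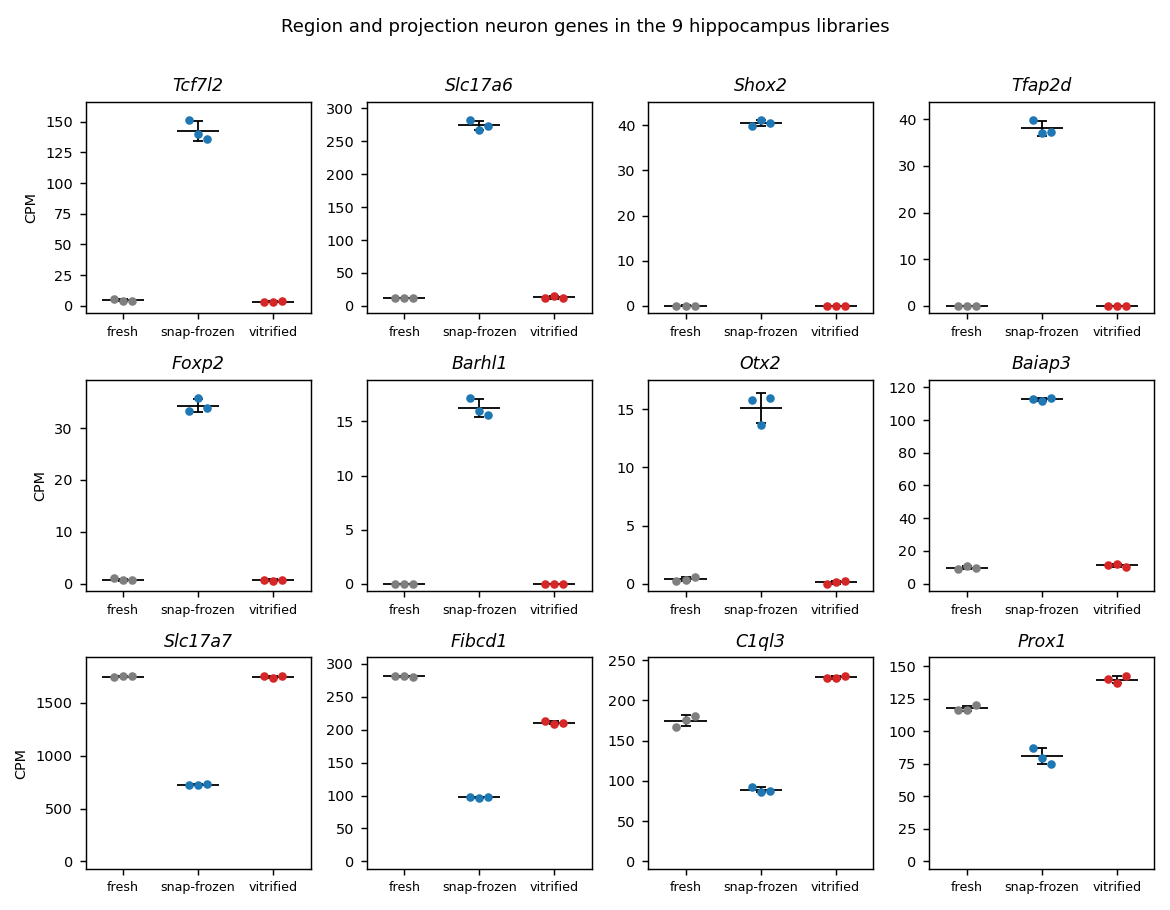
Level in CPM (linear axis) of 12 genes in the 3 fresh, 3 snap-frozen and 3 vitrified hippocampus libraries. Points are libraries, bars the mean and SD; the first 8 genes are high in the snap-frozen libraries, while Slc17a7, Fibcd1, C1ql3 and Prox1 are lowest there.

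Most tested markers of thalamic, striatal and hypothalamic neurons were lower in vitrified tissue. Tcf7l2, a Wnt-pathway transcription factor that thalamic neurons express (ENSMUSG00000024985.19, GRCm38 chromosome 19, 55741820 to 55933654, plus strand), had 151, 140.1 and 136 CPM in snap-frozen, 3.20, 2.92 and 3.66 in vitrified and 5.58, 3.99 and 4.24 in fresh libraries, a log2 fold change of -5.45 ± 0.07 (adjusted p = 6.6e-46). Slc17a6, the vesicular glutamate transporter of subcortical neurons, had 282, 268 and 273 CPM in snap-frozen, 11.98, 15.2 and 11.4 in vitrified and 12.4, 11.8 and 12.2 in fresh libraries (log2 -4.41 ± 0.05, adjusted p = 2.2e-49). The snap-frozen libraries were the high ones for both genes, with a wide gap to the other 6. Every one of the 17 tested members of the thalamic list fell, 12 by more than 1.5-fold, with a median of -1.27, and only Gbx2 was too low to test. Prkcd, protein kinase C delta, fell by less (log2 -0.95 ± 0.06) than the zinc finger factor Zic1 (-2.32 ± 0.08), the nuclear receptor Rora (-1.83 ± 0.05) and the calcium-binding protein Calb2 (-1.12 ± 0.04). The summed level of the list was 1871 to 1902 CPM in snap-frozen, 1016 to 1031 in vitrified and 1109 to 1112 in fresh libraries. In bulk tissue, fewer cells of a type and less RNA per cell cannot be told apart, here and for every list below.

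The striatal list behaved unevenly. Of its 15 tested members 10 fell and Pde10a rose (2 members without snap-frozen replicate 1; median -0.88), and the members with the largest falls, Foxp2 (log2 -5.70 ± 0.13) and Six3, are transcription factors of other brain regions too. The sodium channel subunit Scn4b went from 129 ± 6.10 CPM (mean ± SD, n = 3) to 21.2 ± 1.38 (log2 -2.61 ± 0.05), and Syndig1l fell too (-2.89 ± 0.09). Among defining markers of striatal projection neurons the dopamine receptor Drd2 went from 20.3 ± 0.700 to 2.06 ± 0.573 CPM (log2 -3.30 ± 0.12), with 2.76 ± 0.374 in fresh tissue. The other dopamine receptor of these neurons, Drd1, had 5.05 ± 0.604 CPM in snap-frozen and 4.13 ± 1.09 in vitrified tissue (log2 -0.29 ± 0.15, adjusted p = 0.0806), against 45.7 ± 1.43 in snap-frozen cortex. Without vitrified replicate 2 it passed as lower (log2 -0.51, adjusted p = 0.00556), as it did with library totals and without snap-frozen replicate 3 (adjusted p = 0.0324 and 0.0377). The phosphatase inhibitor Ppp1r1b fell (log2 -0.54 ± 0.05). The list summed to 484 to 503 CPM in snap-frozen, 229 to 242 in vitrified and 248 to 254 in fresh libraries. Of the hypothalamic and septal list only 7 of 19 genes were tested, and 6 of them fell. Baiap3 went from 113 ± 0.898 to 11.1 ± 0.762 CPM (log2 -3.34 ± 0.05), with every snap-frozen library above every vitrified one, and the peptide gene Cartpt (-2.09 ± 0.19) and Zcchc12 (-1.28 ± 0.04) fell as well. Nnat rose (log2 0.58 ± 0.02). Hcrt and Pmch, the peptides that define hypothalamic neurons, were below the filter, with means of at most 0.346 CPM in any state.

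Genes of hippocampal projection neurons went the other way. Slc17a7, the vesicular glutamate transporter of hippocampal and cortical excitatory neurons (ENSMUSG00000070570.5, GRCm38 chromosome 7, 45163949 to 45176142, plus strand), had 719, 722 and 729.7 CPM in snap-frozen, 1751, 1739.6 and 1753 in vitrified and 1742, 1750.4 and 1756 in fresh libraries, a log2 fold change of 1.27 ± 0.02 (adjusted p = 4.0e-45). The snap-frozen libraries were low, and the vitrified and fresh libraries overlapped. Of 17 tested markers of excitatory neurons 16 rose, 13 by more than 1.5-fold (median 0.96), and the exception was Slc17a6. The calmodulin-dependent kinase Camk2a rose (log2 0.41 ± 0.02), as did the NMDA receptor subunit Grin2b (0.99 ± 0.02), the vesicle protein Sv2b (1.19 ± 0.02) and the spine protein Baiap2 (0.92 ± 0.02). The list's summed level was 5674 to 5711 CPM in snap-frozen, 9005 to 9068 in vitrified and 10495 to 10665 in fresh libraries. Thalamic markers moved the opposite way, and their part in these values was not tested.

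Markers of the CA fields and of dentate granule cells were mostly higher in vitrified tissue, 17 of 21 in the former (median 0.78) and 15 of 19 in the latter (median 0.50). Fibcd1, which marks CA1, had 98.5, 96.97 and 97.8 CPM in snap-frozen, 213, 209 and 209.6 in vitrified and 282, 282 and 279.9 in fresh libraries (log2 1.11 ± 0.03). Its vitrified libraries lay between the other states without overlapping either. Wfs1, also of CA1, rose less (log2 0.24 ± 0.03) than the pentraxin Nptx1 (1.04 ± 0.02), the transcription factor Neurod6 (1.02 ± 0.03), Rgs14 (1.07 ± 0.03) and Dkk3 (1.09 ± 0.02). The 2 CA members that fell were Cacng5 (log2 -1.63 ± 0.07) and Pcp4 (-0.96 ± 0.03). Prox1, the homeobox factor that specifies granule cells, had 87.6, 79.9 and 75.2 CPM in snap-frozen, 140.1, 137 and 143 in vitrified and 117, 116 and 120.2 in fresh libraries (log2 0.79 ± 0.04), again with the snap-frozen libraries lowest. The C1q-like synaptic proteins C1ql2 and C1ql3 rose (log2 1.47 ± 0.04 and 1.36 ± 0.03), as did the desmosomal protein Dsp (0.94 ± 0.05), calbindin Calb1 (0.99 ± 0.03) and Rfx3 (0.75 ± 0.03). Neocortical layer markers split, 12 higher and 7 lower of 19: Fezf2 rose (log2 1.55 ± 0.06), and Rorb (-1.72 ± 0.07), Cux2 (-0.72 ± 0.06) and Nxph4 (-4.64 ± 0.12) fell.

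Inhibitory neuron markers split in the same way, with 10 higher and 7 lower of 18. The enzymes that make GABA fell, Gad1 from 529.8 ± 14.2 to 351 ± 10.3 CPM (log2 -0.60 ± 0.02) and Gad2 from 234 ± 2.35 to 113 ± 1.05 (-1.05 ± 0.03), as did the vesicular transporter Slc32a1 (-1.05 ± 0.04). Fresh tissue had 353 ± 7.92 CPM of Gad1 and 129.98 ± 1.19 of Gad2. Parvalbumin, Pvalb, fell from 94.4 ± 2.55 to 25.4 ± 2.38 CPM (log2 -1.89 ± 0.05), with 30.9 ± 1.86 in fresh tissue. The peptide gene Sst (log2 0.62 ± 0.03) and the cannabinoid receptor Cnr1 (0.69 ± 0.03) rose, as did the interneuron factor Lhx6 (1.63 ± 0.09). Of the monoamine and acetylcholine list 9 genes were tested and 6 fell, with Th, which makes catecholamines, at 2.40 ± 0.155 CPM in snap-frozen and 0.569 ± 0.221 in vitrified tissue (log2 -2.06 ± 0.29), Maob (-1.74 ± 0.07) and Hdc (-2.47 ± 0.26). Chat, the enzyme that defines cholinergic neurons, stayed below the filter.

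The 10 largest rises among genes of at least 5 CPM included a netrin, a keratin, a phospholipid-binding protein and a pair of collagens. Ntn5, a netrin, had 0.809, 0.692 and 0.515 CPM in snap-frozen, 7.84, 7.30 and 8.97 in vitrified and 4.41, 4.79 and 4.42 in fresh libraries (log2 3.57 ± 0.19, adjusted p = 4.9e-22). Krt2, a keratin, had 0.636, 0.981 and 1.202 CPM in snap-frozen, 9.78, 10.02 and 9.03 in vitrified and 7.48, 7.24 and 7.31 in fresh libraries (log2 3.34 ± 0.16, adjusted p = 5.0e-23). Cpne7, a calcium-dependent phospholipid-binding protein, had 74.6, 73.4 and 75.1 CPM in snap-frozen, 384, 379 and 389 in vitrified and 406, 400.1 and 405 in fresh libraries (log2 2.37 ± 0.03, adjusted p = 1.0e-48). In each the snap-frozen libraries were lowest, with no overlap with the vitrified or fresh libraries. The glucagon-like peptide 2 receptor Glp2r rose (log2 3.46 ± 0.25), as did Sec1 (2.91 ± 0.18), the thyroid hormone-binding protein Crym (2.25 ± 0.03), the sodium-proton exchanger Slc9a4 (2.17 ± 0.08) and Itgbl1 (2.14 ± 0.13).

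Collagens held large changes in both directions. Col6a1, a chain of the beaded filaments of type VI collagen (ENSMUSG00000001119.7, GRCm38 chromosome 10, 76708792 to 76726168, minus strand), had 12.5, 11.6 and 12.6 CPM in snap-frozen, 78.0, 87.4 and 83.3 in vitrified and 55.8, 61.0 and 59.3 in fresh libraries (log2 2.76 ± 0.06, adjusted p = 4.7e-38). Col5a1, of fibrillar type V collagen, had 8.09, 9.69 and 9.16 CPM in snap-frozen, 36.6, 41.9 and 39.7 in vitrified and 18.8, 17.7 and 16.8 in fresh libraries (log2 2.13 ± 0.07). For both genes all 3 states were apart, snap-frozen lowest and vitrified highest. Of 41 tested collagens 15 rose and 18 fell (median -0.34), 9 and 13 by more than 1.5-fold. Col19a1 rose (log2 1.38 ± 0.06), whereas the fibrillar Col1a2 went from 23.3 ± 0.861 to 6.94 ± 0.391 CPM (-1.75 ± 0.08). Col1a2 and the proteoglycan Dcn lead the list of meningeal and perivascular fibroblasts, of which 12 of 16 fell and only Dcn rose (log2 1.12 ± 0.06). Col3a1 (log2 -1.43 ± 0.16) and Slc47a1 (-1.65 ± 0.22) were among the former. The fibroblast list summed to 172 to 174 CPM in snap-frozen, 136 to 142 in vitrified and 103 to 105 in fresh libraries. Its part in the collagen result was not tested.

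The 5 largest gains in CPM were of genes that neurons express strongly. Hpca, hippocalcin, went from 997 ± 24.3 to 1902 ± 12.4 CPM (log2 0.93 ± 0.02), the calcineurin subunit Ppp3ca from 1110.2 ± 3.62 to 1954 ± 11.6 (0.82 ± 0.02), and Ncdn, neurochondrin, from 2093 ± 42.2 to 3253 ± 15.0 (0.64 ± 0.02). Syt1, the calcium sensor of synaptic vesicles, went from 947 ± 25.2 to 1747 ± 30.9 CPM (log2 0.88 ± 0.02), and Slc17a7 was the remaining gene. The largest losses were led by genes of astrocytes. Sparcl1, a secreted protein of astrocytes, went from 2900.0 ± 32.3 to 937 ± 23.7 CPM (log2 -1.63 ± 0.02), and Glul, the glutamine synthetase of astrocytes, from 2248 ± 119.6 to 828 ± 24.1 (-1.44 ± 0.03). The lipid desaturase Scd2 fell too (log2 -1.25 ± 0.02).

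Astrocyte transcripts fell as a whole. Aqp4 (ENSMUSG00000024411.10, GRCm38 chromosome 18, 15389496 to 15410982, minus strand), which lets water cross the endfeet, had 246, 251 and 249.8 CPM in snap-frozen, 45.9, 46.8 and 48.1 in vitrified and 147, 148 and 145 in fresh libraries, a log2 fold change of -2.41 ± 0.03 (adjusted p = 7.2e-46). Kcnj10, the inward rectifier that takes up potassium, had 447, 452 and 437 CPM in snap-frozen, 86.4, 79.6 and 82.5 in vitrified and 251, 246 and 244 in fresh libraries (log2 -2.43 ± 0.03). For both genes the order was snap-frozen above fresh above vitrified with no overlap. Gfap, the intermediate filament of astrocytes, had 406 ± 2.14 CPM in snap-frozen, 156 ± 4.09 in vitrified and 464 ± 16.9 in fresh tissue (log2 -1.38 ± 0.03), and the glutamate transporter Slc1a3 had, in that order, 434 ± 2.92, 215 ± 7.15 and 634 ± 7.55 (-1.01 ± 0.02). For these 2 genes the fresh level was the highest. All 20 astrocyte markers fell by more than 1.5-fold, between -2.43 and -1.01 (median -1.65). Their medians were -1.40 for vitrified and 0.28 for snap-frozen minus fresh tissue. The list summed to 7675 to 7746 CPM in snap-frozen, 2840.3 to 2854 in vitrified and 7602 to 7673 in fresh libraries. The bicarbonate transporter Slc4a4 (log2 -1.83 ± 0.03), the sodium pump subunit Atp1b2 (-1.80 ± 0.02) and the aldolase Aldoc (-1.54 ± 0.02) were among those with the smallest p. Slc6a11, a GABA transporter of astrocytes that leads the solute carriers, went from 649 ± 12.4 to 79.9 ± 3.02 CPM (log2 -3.02 ± 0.03), with 195 ± 2.40 in fresh tissue.

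**Figure D2:**
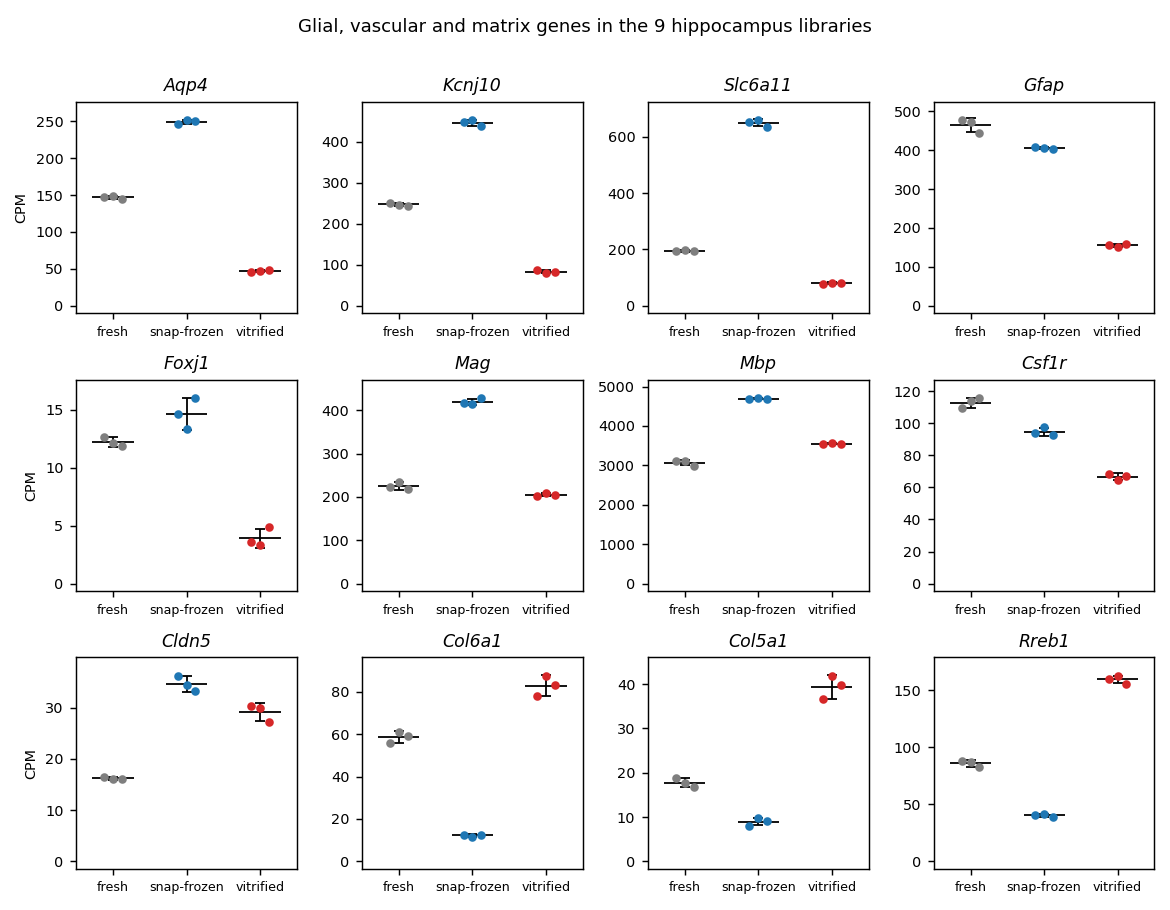
Level in CPM (linear axis) of 12 glial, vascular and matrix genes in the 3 libraries of each state. Points are libraries, bars the mean and SD; the 8 glial genes are lower in vitrified than in snap-frozen libraries, and Col6a1, Col5a1 and Rreb1 are highest in the vitrified ones.

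Ependymal and redox genes were lower along with the astrocyte markers. Foxj1, the regulator of motile cilia, had 14.6, 13.3 and 16.02 CPM in snap-frozen, 3.57, 3.30 and 4.86 in vitrified and 12.7, 12.2 and 11.9 in fresh libraries (log2 -1.90 ± 0.11, adjusted p = 5.2e-20), the vitrified libraries being lowest. Of 22 ependymal markers 19 fell and 2 rose (median -1.63). Ccdc153 (log2 -2.28 ± 0.16), the adenylate kinase Ak7 (-2.48 ± 0.16) and the dynein Dnah6 (-2.36 ± 0.18) fell, while Drc1 rose (0.44 ± 0.10) and Cfap44 was barely past the threshold (log2 0.25 ± 0.11, adjusted p = 0.0445). The call of Cfap44 was lost with library totals, DESeq2, limma-voom and GC and length offsets (adjusted p of 0.137, 0.146, 0.0562 and 0.0578), and without vitrified replicate 3 (log2 0.13, adjusted p = 0.348), snap-frozen replicate 1 (0.144) or snap-frozen replicate 3 (0.0909). Of 22 redox genes 19 fell (median -0.49). The metallothionein Mt1 went from 152 ± 7.77 to 85.1 ± 4.11 CPM (log2 -0.83 ± 0.04), Slc7a11, which imports cystine, fell (-1.35 ± 0.05), and so did the glutathione transferase Gstm1 (-1.24 ± 0.03) and Prdx6 (-0.88 ± 0.03). Hmox1 had a log2 fold change of -0.38 ± 0.13 (adjusted p = 0.00977), a call lost without vitrified replicate 1 (log2 -0.24, adjusted p = 0.135). Astrocytes express several of these genes, and the part of the astrocyte markers in the redox result was not tested.

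Myelin genes were also lower. Mbp, myelin basic protein, had 4679, 4706 and 4695 CPM in snap-frozen, 3554, 3560.0 and 3545 in vitrified and 3116, 3105 and 2988 in fresh libraries (log2 -0.40 ± 0.02), with snap-frozen libraries highest and fresh libraries lowest. All 20 oligodendrocyte markers fell, 15 by more than 1.5-fold (median -0.98). Their median was 0.65 for snap-frozen and -0.24 for vitrified minus fresh tissue, and the list summed to 11226 to 11296 CPM in snap-frozen, 6894 to 6916 in vitrified and 7104 to 7309 in fresh libraries. Transferrin, Trf, fell (log2 -1.37 ± 0.02), as did the adhesion protein Mag (-1.03 ± 0.02). Of 14 precursor markers 9 fell and 1 rose (median -0.40), among them Lhfpl3 (log2 -1.47 ± 0.06) and the phosphatase Ptprz1 (-1.25 ± 0.03). The defining receptor Pdgfra had 58.7 ± 1.35 CPM in snap-frozen and 55.7 ± 2.04 in vitrified tissue (log2 -0.08 ± 0.04, adjusted p = 0.101) and Cspg4 26.2 ± 1.89 and 24.7 ± 0.0838 (-0.09 ± 0.06, 0.208). Both passed with library totals and with GC and length offsets.

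Microglial genes fell by small amounts and border macrophage genes by larger ones. Csf1r, the receptor microglia need to survive, went from 94.7 ± 2.43 to 66.7 ± 2.09 CPM (log2 -0.51 ± 0.04) and P2ry12, a purinergic receptor, from 33.6 ± 1.78 to 26.0 ± 0.344 (-0.37 ± 0.06). Of 19 microglial markers 16 fell (median -0.38). Mrc1, the mannose receptor of perivascular and meningeal macrophages, had 3.41, 3.40 and 3.66 CPM in snap-frozen, 0.753, 0.825 and 0.631 in vitrified and 1.84, 2.21 and 2.70 in fresh libraries (log2 -2.23 ± 0.23). All 7 tested border macrophage markers fell, 6 by more than 1.5-fold (median -1.87), including F13a1 (log2 -2.63 ± 0.32) and Cd163 (-1.87 ± 0.34). All but Stab1 were below 5 CPM in every state, and Pf4 was too low to test.

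Vascular markers were mostly lower in vitrified than in snap-frozen tissue. The endothelial list had a median of 0.85 for vitrified and 1.10 for snap-frozen minus fresh tissue. Cldn5, which seals the junctions of brain endothelial cells, had 36.2, 34.4 and 33.2 CPM in snap-frozen, 30.2, 29.9 and 27.2 in vitrified and 16.5, 16.02 and 16.1 in fresh libraries (log2 -0.25 ± 0.06), and the VEGF receptor Flt1 had, in that order, 76.5 ± 2.56, 56.0 ± 1.82 and 28.4 ± 0.771 (-0.45 ± 0.04). For Cldn5 the vitrified libraries lay between the other states, close to the snap-frozen ones. Of 20 endothelial markers 16 fell (median -0.36), and Slc16a1, a lactate transporter, was the only member below by more than 1.5-fold (log2 -0.68 ± 0.04). Pericyte and smooth muscle markers fell in 12 of 15 cases (median -0.81), from smooth muscle actin Acta2 (log2 -1.29 ± 0.08) and the myosin Myh11 (-1.10 ± 0.09) to the receptor Pdgfrb (-0.49 ± 0.06). Haemoglobin genes rose, Hbb-bs from 31.3 ± 0.594 to 65.2 ± 0.606 CPM (log2 1.06 ± 0.04) and Hba-a1 from 21.5 ± 0.271 to 40.5 ± 2.53 (0.91 ± 0.06). Of 7 tested blood markers 6 rose and only Ptprc fell (median 0.95). Of these, 4 share reads with near-identical copies, so their values are uncertain.

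In the choroid plexus list 7 of 13 tested members fell (median -0.70) and the defining genes Ttr and Kl rose. Otx2 counts among the falls and passed the filter only through its snap-frozen level. Ttr, the thyroxine carrier this epithelium secretes, was at 6.51 ± 1.14 CPM in snap-frozen and 9.46 ± 0.755 in vitrified tissue (log2 0.54 ± 0.11), and Kl, klotho, at 12.7 ± 0.888 and 23.3 ± 0.561 (0.87 ± 0.07). In contrast Otx2, a homeobox factor of this epithelium and of the midbrain, had 15.8, 13.6 and 15.97 CPM in snap-frozen, 0, 0.127 and 0.253 in vitrified and 0.245, 0.307 and 0.553 in fresh libraries (log2 -6.82 ± 0.24), and Clic6 fell (-2.99 ± 0.29).

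**Figure D3:**
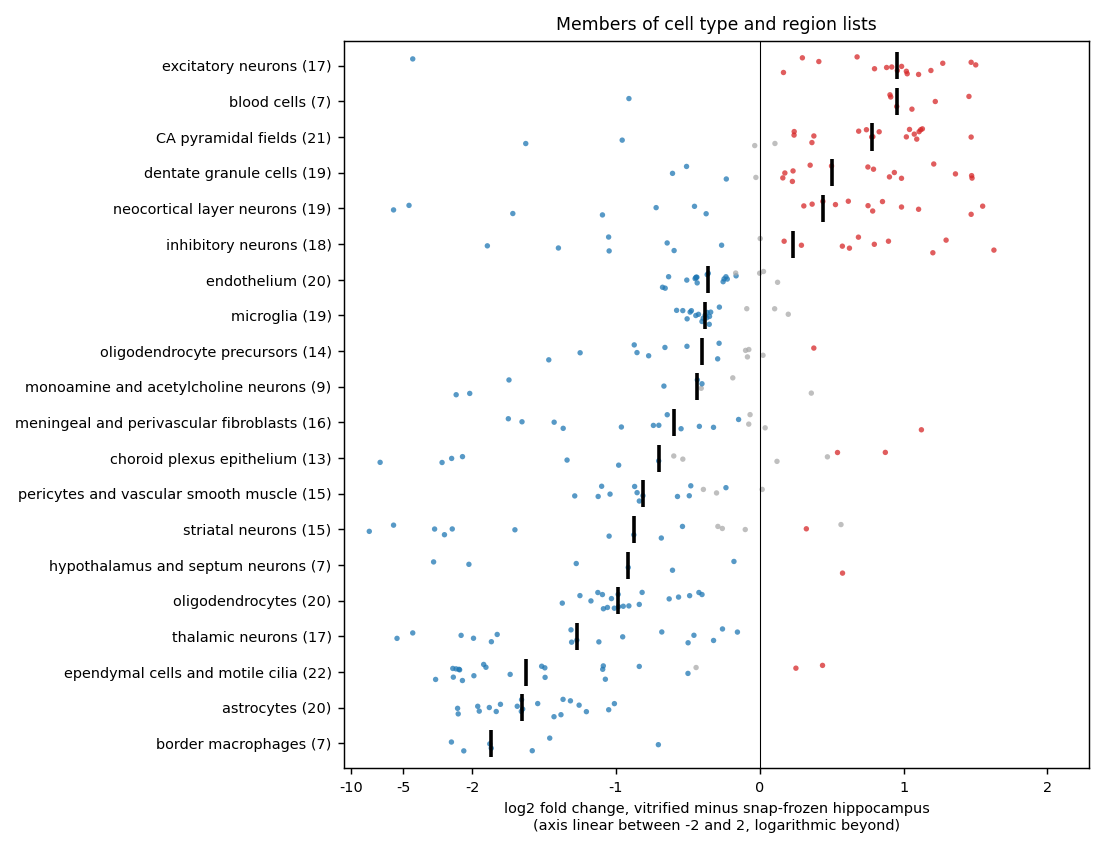
Log2 fold change of each tested member of the cell type and region lists (number tested in brackets), coloured where it rose (red) or fell (blue) at an adjusted p below 0.05, with the list median as a black bar. Excitatory, blood cell and hippocampal lists lie to the right. The border macrophage list lies furthest to the left, and astrocyte, ependymal, thalamic and oligodendrocyte lists also lie to the left.

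Postsynaptic genes were mostly higher in vitrified than in snap-frozen tissue. Dlg4, the scaffold PSD-95, had 638, 648 and 620.0 CPM in snap-frozen, 758, 765 and 757 in vitrified and 946, 926 and 928 in fresh libraries (log2 0.26 ± 0.02), the vitrified libraries lying between the other states. Shank3, a scaffold beneath glutamate receptors, had 178 ± 6.31 CPM in snap-frozen, 178 ± 2.81 in vitrified and 348 ± 4.45 in fresh tissue (log2 0.00 ± 0.03, adjusted p = 0.963). Its frozen states overlapped, and only with other scalings did it pass as lower, at log2 -0.06 with library totals (adjusted p = 0.0381) and -0.09 with GC and length offsets (adjusted p = 0.00104). Of 29 scaffold genes 26 rose, 11 by more than 1.5-fold (median 0.44). The medians were -0.22 for vitrified and -0.83 for snap-frozen minus fresh tissue. Agap2 rose (log2 0.68 ± 0.02). Transcripts that travel into dendrites overlap this list, and 19 of 23 rose (median 0.38). Arc, an activity-regulated transcript, went from 64.6 ± 0.618 to 81.4 ± 2.45 CPM (log2 0.33 ± 0.04), while Map2 fell (-0.32 ± 0.02). Excitatory neuron markers rose in the same comparison, and their part in the counts of synaptic genes was not tested.

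Synaptic vesicle genes moved both ways. Of 40 genes 25 rose and 13 fell (median 0.38). The SNARE protein Snap25 rose from 1829.8 ± 38.3 to 2221 ± 31.5 CPM (log2 0.28 ± 0.02). Syt2, the fast calcium sensor, had 289, 299 and 289 CPM in snap-frozen, 26.7, 26.0 and 23.3 in vitrified and 32.9, 35.0 and 33.2 in fresh libraries (log2 -3.53 ± 0.04), and the SNARE protein Vamp1 had, in that order, 599.9 ± 1.51, 148 ± 3.53 and 143 ± 3.75 (-2.02 ± 0.02). For both the snap-frozen libraries stood alone, as for Slc17a6. The neurofilament subunit Nefh shared this pattern, in that order at 203 ± 6.01, 60.7 ± 2.13 and 76.6 ± 0.312 CPM (log2 -1.74 ± 0.03), and of 21 cytoskeletal genes 11 fell and 5 rose, among them Nefl (-0.15 ± 0.02) and tau, Mapt (0.11 ± 0.02), the latter not called with library totals (adjusted p = 0.0637).

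Receptor subunits were likewise divided. Of 25 glutamate receptor subunits 14 rose and 9 fell (median 0.20). The AMPA receptor subunit Gria1 rose from 746 ± 8.31 to 1254 ± 16.03 CPM (log2 0.75 ± 0.02), and so did the kainate receptor subunit Grik4 (1.13 ± 0.04) and the obligatory NMDA receptor subunit Grin1 (0.38 ± 0.02). Of 20 subunits of GABA and glycine receptors 7 rose and 12 fell. Gabra5 (log2 0.83 ± 0.03) and the extrasynaptic Gabrd (0.78 ± 0.07) rose, while the glycine receptor subunit Glra3 fell from 26.1 ± 1.72 to 4.06 ± 0.760 CPM (-2.68 ± 0.10). Among 42 monoamine, muscarinic and peptide receptors 19 rose and 15 fell. The muscarinic receptor Chrm1 rose from 148 ± 2.00 to 327 ± 5.88 CPM (log2 1.14 ± 0.02), and so did the neuropeptide Y receptor Npy2r (1.74 ± 0.05), the adrenergic receptor Adra1d (1.46 ± 0.05) and the serotonin receptor Htr1a (0.39 ± 0.05). Chrm2 fell from 42.1 ± 2.33 to 5.93 ± 0.850 CPM (log2 -2.83 ± 0.08). Of 25 peptide and granin genes 11 rose and 10 fell, with Cck (log2 0.88 ± 0.03) among the former and the granin Scg2 (-0.98 ± 0.02) among the latter. Npy rose by little (log2 0.17 ± 0.06), a call lost with library totals and without snap-frozen replicate 2 (adjusted p = 0.0932 and 0.0545).

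Channels and pumps moved both ways and widely. Of 71 potassium channel genes 33 rose and 31 fell, from Kcnq5 (log2 1.41 ± 0.04) and Kcnma1 (0.82 ± 0.02) to Kcnab3 (-2.07 ± 0.04). Of 39 sodium, calcium and HCN channel genes 21 rose and 15 fell, the latter including Scn1a (log2 -1.08 ± 0.03, which shares reads with similar genes), Hcn2 (-1.10 ± 0.03) and Cacna2d2 (-1.98 ± 0.05). Of 19 pump and exchanger genes 8 rose and 8 fell. The calcium pump Atp2b1 (log2 0.82 ± 0.02) and the exchanger Slc8a2 (1.03 ± 0.02) rose. Among 278 solute carriers 77 rose and 139 fell, 16 and 53 by more than 1.5-fold (median -0.15). Clustered protocadherins, of which 35 of 56 share reads, had 22 higher and 10 lower members, or 16 lower with library totals and 6 with DESeq2.

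Acute activity and stress genes were not uniformly higher in either state. Fos, an immediate early transcription factor, had 12.5, 13.3 and 11.7 CPM in snap-frozen, 4.14, 5.08 and 4.92 in vitrified and 10.1, 9.02 and 7.99 in fresh libraries (log2 -1.41 ± 0.11, adjusted p = 8.6e-16), the vitrified libraries being lowest. Jun had 59.5, 64.9 and 65.1 CPM in snap-frozen, 146, 144 and 144 in vitrified and 125, 124 and 127 in fresh libraries (log2 1.19 ± 0.03), with the snap-frozen libraries lowest. Of 42 immediate early genes 20 rose and 10 fell (median 0.18), with rises of Nr4a1 (log2 0.96 ± 0.05), Nr4a3 (0.93 ± 0.04) and Egr3 (0.70 ± 0.03), while Egr1 was at 109 ± 1.49 and 104 ± 2.88 CPM (-0.07 ± 0.03, adjusted p = 0.0658; below 0.05 with library totals, with GC and length offsets or without vitrified replicate 2). Of 26 endoplasmic reticulum and integrated stress response genes 20 fell and 1 rose (median -0.29). The chaperone Hspa5 went from 348 ± 8.33 to 268 ± 5.55 CPM (log2 -0.37 ± 0.02), Ddit3, which the integrated stress response induces, fell (-0.42 ± 0.07), and so did Pdia4 (-0.46 ± 0.04). Cytosolic heat shock genes were mixed, 7 higher and 10 lower of 25. Hspa1a rose from 14.5 ± 1.06 to 24.5 ± 0.700 CPM (log2 0.75 ± 0.07) but shares reads with a near-identical copy, Hsph1 rose (0.22 ± 0.02) and the small chaperone Cryab fell (-0.86 ± 0.03).

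Among 13 tested inflammatory genes 9 fell and 2 rose, with complement C3 at 2.88 ± 0.0716 and 0.336 ± 0.0346 CPM (log2 -3.07 ± 0.29), the adhesion molecule Vcam1 (-1.03 ± 0.07) and cyclooxygenase Ptgs2 (1.00 ± 0.06). The cytokine genes Tnf and Ccl2 were below the filter. Of 22 cell death genes 4 rose and 8 fell: anti-apoptotic Bcl2 went from 23.2 ± 1.73 to 8.43 ± 0.476 CPM (log2 -1.46 ± 0.08), the apoptosome component Apaf1 (0.90 ± 0.08) and the BH3-only gene Bbc3 (1.09 ± 0.12) rose, while Bax was at 30.1 ± 0.956 and 32.3 ± 0.975 (0.10 ± 0.06, adjusted p = 0.106). In the osmolyte and cell volume list 6 rose and 9 fell of 17. The inositol transporter Slc5a3 fell (log2 -0.29 ± 0.06) and the tonicity-responsive factor Nfat5 rose (0.15 ± 0.03; 0.03 with GC and length offsets, adjusted p = 0.348). Glucocorticoid and FoxO targets were mixed as well, with Fkbp5 (log2 0.81 ± 0.04), Sgk1 (0.45 ± 0.04) and Tsc22d3 (-0.77 ± 0.04). So were clock genes, with Arntl (log2 0.20 ± 0.06), Dbp (-0.36 ± 0.03) and Per1 (0.80 ± 0.04).

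Among metabolic lists the cholesterol and iron genes had the lowest medians. Of 24 cholesterol genes 19 fell (median -0.36), among them the regulator Insig1 (log2 -0.85 ± 0.04) and Cyp51 (-0.76 ± 0.04). Of 15 iron genes 11 fell (median -0.31): the ferroxidase Heph had 18.3, 16.4 and 16.7 CPM in snap-frozen, 1.69, 2.09 and 1.83 in vitrified and 11.3, 10.7 and 9.83 in fresh libraries (log2 -3.19 ± 0.12), and Steap2 fell (-2.63 ± 0.08). The storage protein Fth1 (log2 -0.02 ± 0.02, adjusted p = 0.430) and the receptor Tfrc (0.05 ± 0.03, 0.0899) did not pass. With library totals Fth1 passed as lower (log2 -0.09, adjusted p = 0.0011), and without vitrified replicate 1 Tfrc passed as higher (0.09, adjusted p = 0.0138). Among 27 hypoxia and glycolysis genes 14 rose and 7 fell (12 with library totals), with Ldha (log2 0.47 ± 0.02), Pfkl (0.90 ± 0.02), Vegfa (-0.59 ± 0.04) and Ldhb (-0.83 ± 0.02). Respiratory chain genes fell in 47 of 82 cases and rose in 5 (15 with offsets for GC content and transcript length, 0 with library totals and 3 without snap-frozen replicate 2; median -0.10), and cytosolic ribosomal proteins fell in 38 of 83 and rose in 6 (median -0.07). Proteasome genes rose in 22 of 46 cases (median 0.10), with Psma5 (log2 0.35 ± 0.04). These small shifts depended on the scaling: with library totals 62 ribosomal protein genes fell and 14 proteasome genes rose, and with those offsets 23 ribosomal protein genes fell and 13 rose. Mitochondrial ribosomal proteins rose in 12 and fell in 14 of 79 cases. Their falls numbered 22 with library totals, 9 with DESeq2, with GC and length offsets or without vitrified replicate 3, and 7 without vitrified replicate 2.

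Imprinted genes and those histone genes that could be tested were mostly lower. Of 24 imprinted genes 17 fell and 5 rose (median -0.45, and 0.60 for snap-frozen minus fresh tissue). Peg3 had 555, 556 and 559 CPM in snap-frozen, 345, 348 and 348 in vitrified and 287, 284 and 295 in fresh libraries (log2 -0.68 ± 0.02), and necdin, Ndn, had, in that order, 318 ± 7.64, 278 ± 4.52 and 103 ± 1.44 (-0.20 ± 0.02). Both frozen states were above fresh tissue for these 2 genes. Usp29 (log2 -1.53 ± 0.05) and Nap1l5 (-1.26 ± 0.02) fell further. Of 57 listed histone genes 10 were tested and 9 fell (median -0.73), H1f2 (log2 -1.79 ± 0.12) the most clearly, and H1f0, a linker histone made outside S phase too, also fell (-0.42 ± 0.03). Of the 10, 6 share reads with similar genes. The libraries hold captured poly(A) RNA, and how fully such capture recovers histone transcripts was not tested. The only gene of the long noncoding list in the table, Snhg11, rose (log2 0.22 ± 0.02).

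**Figure D4:**
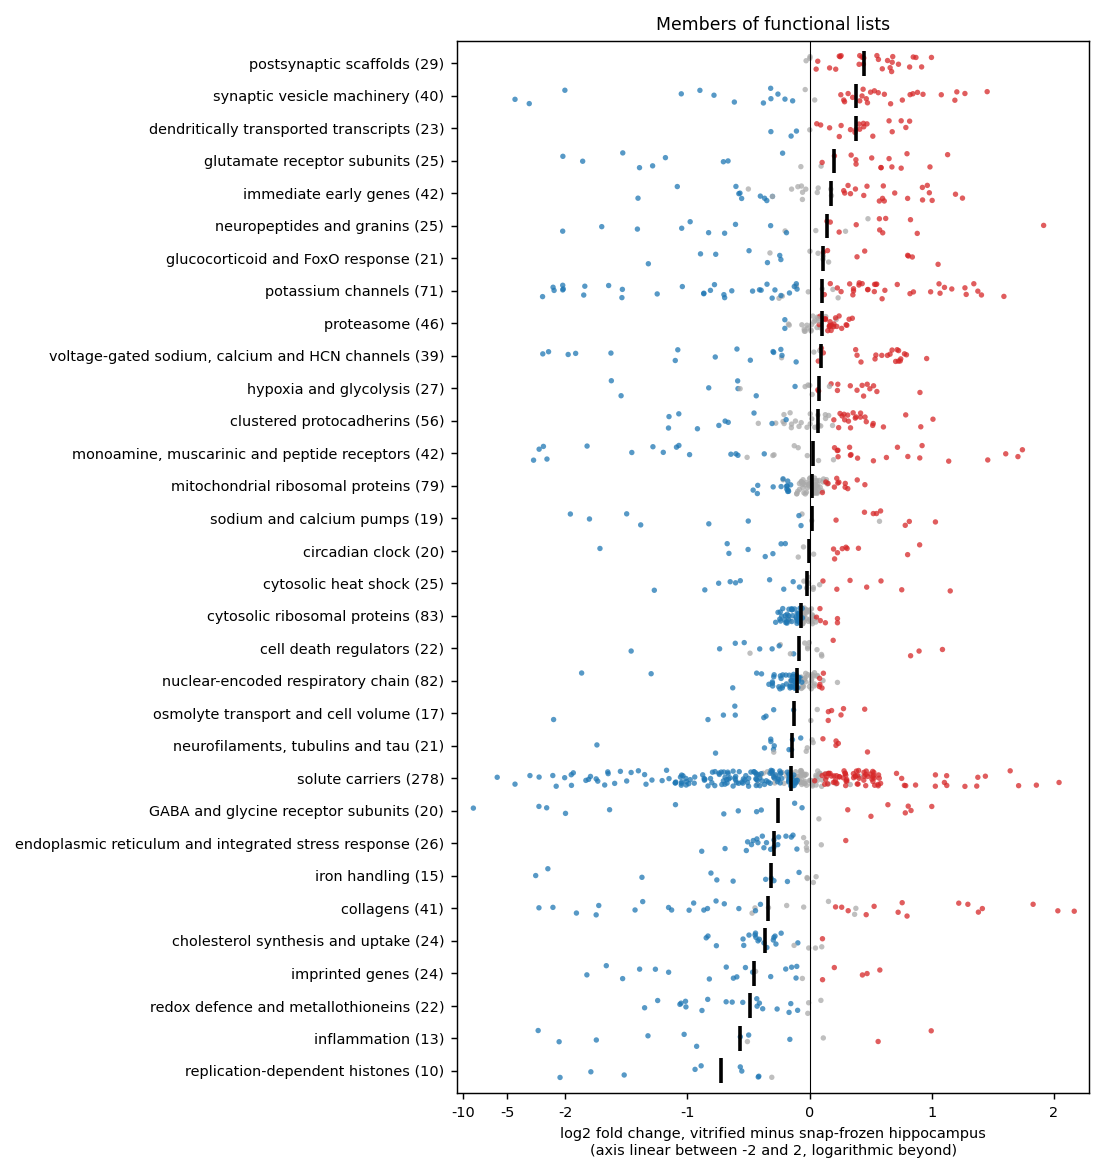
Log2 fold change of each tested member of the functional lists (number tested in brackets), coloured where it rose (red) or fell (blue) at an adjusted p below 0.05, with the list median as a black bar. Postsynaptic scaffolds lie furthest to the right and histones, inflammatory and redox genes furthest to the left.

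The same contrast in cerebral cortex uses other libraries and was much smaller. There 359 of 14470 tested genes rose by more than 1.5-fold (2.48%) and 98 fell (0.677%). Of the 752 hippocampal rises 721 were tested in cortex, and of the 1616 falls 1483 were. Called the same way in cortex were 58 rises, 7.71% of all hippocampal and 16.2% of cortical rises. For falls these were 53 genes, 3.28% of all hippocampal and 54.1% of cortical falls. The hippocampal percentages include the genes not tested in cortex. In the opposite direction in cortex were 12 of the rises and 18 of the falls. Genes called the same way in both tissues were looked for after values had been seen. Col5a1 went from 14.4 ± 0.564 to 62.7 ± 0.903 CPM in cortex (log2 2.12 ± 0.06), Col6a1 from 54.3 ± 1.93 to 147 ± 1.64 (1.44 ± 0.04) and the transcription factor Rreb1 from 21.8 ± 0.707 to 62.6 ± 2.78 (1.52 ± 0.05, against 1.99 ± 0.04 in hippocampus). Col6a4 rose in hippocampus and in cortex (log2 1.83 ± 0.11 and 1.97 ± 0.14), and so did the calcium release channel Ryr1 (1.15 ± 0.05 and 1.43 ± 0.07). Among the falls, Gfap had a log2 fold change of -1.58 ± 0.04 in cortex. The protease inhibitor A2m fell in hippocampus and in cortex (log2 -2.69 ± 0.17 and -2.11 ± 0.23), as did the lipopolysaccharide-binding protein Lbp (-2.06 ± 0.17 and -1.95 ± 0.21), myocilin, Myoc (-1.48 ± 0.07 and -1.67 ± 0.07), and lysozyme, Lyz2 (-1.50 ± 0.15 and -1.44 ± 0.13). The median of the astrocyte list in cortex was -0.64, that of excitatory neurons 0.02, of thalamic neurons -0.08, of oligodendrocytes 0.06 and of postsynaptic scaffolds -0.04. Cortical medians lay further from 0 for choroid plexus (-1.54), border macrophages (-1.33), ependymal cells (-0.72) and blood cells (0.91). In hippocampus these lists were, in that order, at -0.70, -1.87, -1.63 and 0.95. The collagen median was 0.58 in cortex and -0.34 in hippocampus, and Snhg11 was at log2 1.90 and 0.22.

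An interaction term, fitted to 14827 genes in all 18 libraries, tested whether the change differed between the tissues. The change was more than 1.5-fold higher in hippocampus than in cortex for 672 genes (4.53%) and more than 1.5-fold lower for 1292 (8.71%). With library totals in place of TMM factors these were 517 and 1647. Slc17a7 was among the former (log2 difference 1.43 ± 0.03, adjusted p = 3.2e-27), with 1589.6 ± 36.2 CPM in snap-frozen and 1454 ± 12.1 in vitrified cortex. Tcf7l2 was among the latter (log2 difference -5.52 ± 0.19, adjusted p = 2.9e-25), with 4.32 ± 0.139 and 4.63 ± 0.307 CPM in cortex. Aqp4 fell further in hippocampus than in cortex (log2 difference -1.18 ± 0.05, adjusted p = 2.6e-13), and for Gfap the log2 difference was 0.22 ± 0.04 (adjusted p = 1.00 against the 1.5-fold threshold). The largest differences among genes above 5 CPM were led by Ttr (log2 difference 7.04 ± 0.26) and Dsp (4.63 ± 0.25) on the higher side, where the cortical level moved more: Ttr was at 116 ± 3.11 CPM in snap-frozen and 1.29 ± 0.315 in vitrified cortex, and Dsp at 3.80 ± 0.336 and 0.292 ± 0.182. On the lower side were genes that vitrified hippocampus nearly lacked. Of these, Tfap2d had 2.93 ± 0.381 CPM in snap-frozen and 3.15 ± 0.755 in vitrified cortex, and Six3 5.72 ± 0.365 and 6.17 ± 0.219.

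**Figure D5:**
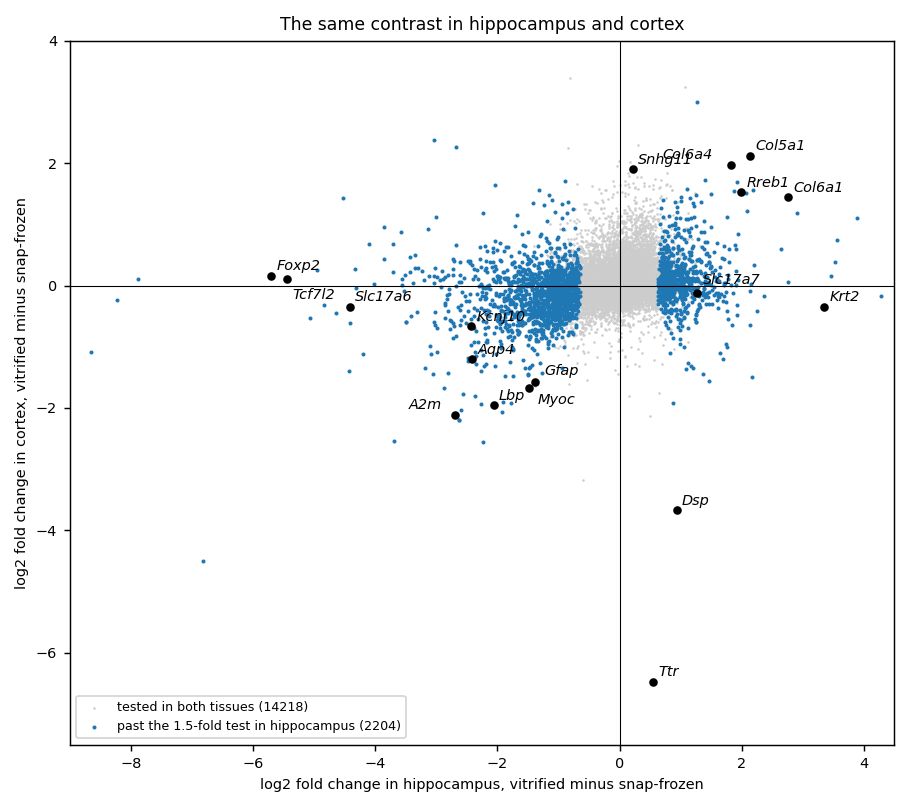
Log2 fold change, vitrified minus snap-frozen, in hippocampus (x axis) and cortex (y axis) for the 14218 genes tested in both (grey), with the 2204 past the 1.5-fold test in hippocampus in blue and named genes in black; 1 gene lies outside the axes. Thalamic and region genes spread along the hippocampus axis and Ttr and Dsp along the cortex axis. Gfap, Col5a1 and Col6a4 lie near the diagonal, and Col6a1 lies below it, with a larger rise in hippocampus than in cortex. Collagens as a family do not follow the diagonal.

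Genes that rose by more than 1.5-fold had longer transcripts in the median than those that fell or all genes tested. The medians are given without a test. The longest transcript had a median of 4030 nucleotides and 51.8% GC for genes that rose by more than 1.5-fold, 3489 and 50.6% for those that fell by as much, and 3488 and 49.9% for all genes tested. A transcript was found for 746 of the 752, 1596 of the 1616 and 14228 of the 14528 genes.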

How the data were processed

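The submitters' processing notes name HISAT2 2.0.4 and the build GRCm38.p6. Which counter, strand setting and gene models were used is not stated in the labels. The authors deposited expected counts (estimated counts, which need not be whole) per gene for each tissue, which were rounded to whole numbers here. Gene symbols were matched to GENCODE release M21 for coordinates (17729 of 18389 symbols, and 467 more in RefSeq only), and promoter sequences were taken from RefSeq.

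Counts of the 9 hippocampus libraries were filtered with filterByExpr, scaled by TMM and tested by edgeR 4.0.16's quasi-likelihood F test in R 4.3.3, with Benjamini-Hochberg adjustment at 0.05; a second call rule tested each difference against 1.5-fold. The fit takes its spread from all 9 libraries. The cortex was fitted in the same way on its own table, and the difference between tissues over all 18 libraries. DESeq2 1.42.0 and limma 3.58.1 (voom), other scalings, filters, thresholds, offsets for GC content and length (lowess span 0.3), a replicate block and leaving out each library served as alternatives. The fits were also run on simulated counts with few changed genes and a common spread for all genes. Those counts cannot show how the scaling behaves where most genes differ, as here.

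The gene lists, the genes and the tests were chosen with earlier results of these data known. Named genes are the 10 largest rises and falls past the 1.5-fold test with at least 5 CPM in the higher group and no overlap, the 5 largest changes in CPM each way, the lead genes of each list with up to 4 further members of smallest p, and the 5 largest differences between tissues each way. Some were left out for length, and some are not reported here. Genes outside this rule (exceptions within a list, the 25 genes near 0 and those called in both tissues) were chosen after their values were seen. Folds against a group with no counts use 3 counts over the group, and such floors and intervals (exact binomial, 95%) cover counting error only.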

Additional observations from a re-analysis of the deposited data

Results flagged for a closer look

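The change from snap-frozen to vitrified tissue differed between hippocampus and cortex by more than 1.5-fold for many genes, as an interaction tested with edgeR over all 18 libraries: 672 genes changed more positively in hippocampus and 1292 more negatively. Among the genes named in the report and here, 134 of the 224 tested passed this test, against 4.53% of all tested genes on the higher and 8.71% on the lower side. Those genes were chosen in part for large changes and for large differences between tissues, so their count shows nothing beyond the choice.

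The 5 largest positive differences were of Ttr (log2 difference 7.042), Dsp (4.628), Krt2 (3.714), Slc9a4 (3.688) and Glp2r (3.332). In cortex Krt2 was at 1.40 ± 0.519 CPM in snap-frozen and 1.10 ± 0.0888 in vitrified tissue, Slc9a4 at 3.47 ± 0.480 and 1.23 ± 0.230, and Glp2r at 3.01 ± 0.616 and 3.33 ± 0.217. Thus Krt2 and Glp2r differ chiefly through their rise in hippocampus, and Slc9a4 both rose in hippocampus and was lower in vitrified cortex. Ttr and Dsp differ chiefly through cortex, where both were lower in vitrified tissue.

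The 5 largest negative differences are given by their adjusted p alone, since counts near 0 in vitrified hippocampus leave their size undetermined. They were Tfap2d (2.19e-23), Six3 (9.03e-22), Shox2 (3.39e-05), Cnpy1 (0.000204) and Pou4f1 (0.000373). In cortex Shox2 was at 0.115 ± 0.115 CPM in snap-frozen and 0.0624 ± 0.0628 in vitrified tissue, Cnpy1 at 0.0964 ± 0.0335 and 0.0621 ± 0.0617, and Pou4f1 at 0.0576 ± 0.0576 and 0.0624 ± 0.0628. The call of Pou4f1 was lost without cortex vitrified replicate 3 (adjusted p = 0.0716).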

How the results depend on the processing

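The counts of genes that rose or fell in hippocampus stayed within 1.5 times the reported ones under each scaling, filter, tool and offset and without any 1 library; another fold threshold moved them further. The counts for the difference between tissues did so with both other scalings, no filter, limma-voom, the block, the 12 vitrified and snap-frozen libraries alone and without any 1 of those; other alternatives were not run for them. At 1.2-fold 2267 genes rose and 3024 fell, and at 2-fold 187 rose and 733 fell. Library totals in place of TMM gave 3980 rises and 5899 falls, and moved the median of all genes to -0.0689. Over the fits that left out 1 library, 4709 to 5034 genes rose and 4660 to 4918 fell, 712 to 775 and 1528 to 1624 of them by more than 1.5-fold, and the difference between tissues was called for 599 to 711 genes on the higher side and 1119 to 1356 on the lower. The replicate block gave 4914 rises and 4928 falls (751 and 1613 by more than 1.5-fold) and 669 and 1279 differences between tissues. Deviations of same-numbered vitrified and snap-frozen libraries from their group means had an r of -0.006, -0.005 and -0.024 across genes. Spread within groups was close to counting error, so these values cannot decide whether the libraries are paired. The labels name no animal, and the numbers were not taken to pair them.

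Direction changed for 3 named genes, none of which passed the test as reported. Shank3 was at -0.00255 with median-of-ratios factors, -0.0631 with library totals, -0.00211 with a minimum of 1 CPM, -0.00252 with DESeq2 and -0.0939 with GC and length offsets, and at -0.0240 to 0.0200 when 1 library was left out. Fth1 was at 0.0144 with those offsets and at -0.0503 to 0.00496 when 1 library was left out. With library totals Tfrc was at -0.0112. The cause was not tested. Of 3996 values of named genes under the alternatives, 3961 kept their direction and their side of the threshold, 12 lost the call and 12 gained it. The other 11 changed direction, and 2 of these, of Shank3 with library totals and with GC and length offsets, also passed the test. Below 3 counts in a library (0.172 to 0.190 CPM) depth sets the limit.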
